A study of Mus musculus with 4 samples.

Results

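Vsir, the gene of VISTA, was described together with 9 other genes of inhibitory ligands and receptors that myeloid cells use, in CD11b+ cells sorted from mouse tumors. The 10 genes were taken by symbol from the count matrices and were Vsir, Selplg, Cd274, Pdcd1lg2, Lgals9, Havcr2, Lilrb4a, Cd200r1, Sirpa and Cd80. Each had 1 row among the 32285 genes measured.

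The VISTA KO library held cells of bone marrow chimeras made with VISTA KO marrow, and the WT library held cells of chimeras made with WT marrow. Both were of the C57/BL6 strain, both had 6 weeks of reconstitution, and both then received MC38, a mouse colon carcinoma line. Tumors of 9 to 10 mm were pooled, stains for CD45.1 and CD45.2 separated VISTA KO from WT cells, and 10000 sorted live cells positive for CD11b were loaded for 10x Genomics 3′ sequencing. The labels give neither the number of mice, nor whether both marrows were placed in the same hosts, nor the construction of the VISTA KO allele, nor the host cells that remained after reconstitution. Each group held 1 library, so no test was possible, and all intervals are 95% intervals that cover counting error only. Because CD45 alleles separated the groups, they differed genetically in more than VISTA. In every ratio such differences cannot be told apart from the VISTA genotype.

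Kept cells numbered 15140 in VISTA KO and 10193 in WT, with a median of 4212.5 UMIs (unique molecular identifiers, 1 per captured RNA molecule) in VISTA KO and 4692 in WT. The libraries shared 47 barcode sequences. The sorted cells are labelled as myeloid-derived suppressor cells of the tumor, and the markers found in them were those of several cell types. Macrophage-like cells were 16.7% of VISTA KO and 14.1% of WT cells, monocyte-like cells 14.0% of VISTA KO and 24.7% of WT cells, and neutrophil-like cells 0.502% of VISTA KO and 3.77% of WT cells. A cluster with both neutrophil and macrophage RNA held 5.33% of VISTA KO and 18.6% of WT cells. NK cell-like, cDC2-like (type 2 dendritic), mature DC-like, T cell-like, basophil-like and fibroblast-like cells made up smaller classes. Clusters that no marker list named are given by number with their leading genes. The largest of these was cluster 0 (Cxcl9, Gpr84, Slc7a2, Nos2), with 3127 VISTA KO and 265 WT cells. The 10 genes and the partner genes described further on were kept out of the clustering.

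VISTA is a surface protein of the B7 family that restrains T cells and myeloid cells, and PSGL-1, the product of Selplg, is one of its binding partners. PD-L1 (Cd274) and PD-L2 (Pdcd1lg2) bind PD-1 on T cells, and CD80 binds CD28 and CTLA-4 and also PD-L1 on the same membrane. Galectin-9 (Lgals9) is a ligand of TIM-3 (Havcr2), CD200R1 receives CD200, and SIRPα (Sirpa) receives the CD47 signal that holds back phagocytosis. Lilrb4a encodes an inhibitory receptor of the immunoglobulin superfamily.

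Vsir RNA was lower in the VISTA KO library and was not absent from it. Levels are given in CPM, the UMIs of a gene per 1000000 UMIs summed over the cells of a class. Over all kept cells Vsir stood at 46.2 CPM (44.7 to 47.7, 3708 UMIs) in VISTA KO and 136.5 CPM in WT (8423 UMIs), so VISTA KO had 33.8% of the level in WT. The log2 ratio of VISTA KO over WT was -1.56 (-1.62 to -1.51). Among all genes with at least 100 UMIs, 4.19% were lower by 1.5-fold or more over all kept cells, as Vsir was, and 4.43% were higher by as much.

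The ratio of Vsir differed between cell classes. Monocyte-like cells held 34.6 CPM in VISTA KO and 126.6 CPM in WT, a log2 ratio of -1.87 (-2.05 to -1.69). Macrophage-like cells held 73.1 CPM in VISTA KO and 149.5 CPM in WT, a log2 ratio of -1.03 (-1.15 to -0.92). These 2 intervals do not overlap, and VISTA KO retained 48.9% of the level found in WT in macrophage-like cells and 27.4% in monocyte-like cells. Within the macrophage-like class, cluster 4 (Ccl8, Fcrls, Folr2) had 85.8 CPM in VISTA KO and 149.9 CPM in WT, and cluster 7 (Mmp12, Mt2, Hmox1) had 59.9 CPM in VISTA KO and 153.8 CPM in WT. Monocyte-like cluster 5 had 26.6 CPM in VISTA KO and 113.6 CPM in WT. The remaining Vsir RNA of VISTA KO was thus spread unevenly, from the macrophage-like value down to that of cDC2-like cells (13.7 CPM in VISTA KO, 52.5 CPM in WT).

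Vsir was lower in VISTA KO in all 13 classes and clusters with at least 50 cells in both libraries, and in each of them the interval lay below 0. Of the 11 with at least 100 Vsir UMIs, all were lower by the 1.5-fold rule, with log2 ratios between -2.44 in the mixed cDC2 and macrophage cluster and -1.03 in macrophage-like cells. NK cell-like cells had 26.3 CPM in VISTA KO and 76.6 CPM in WT, mature DC-like cells 18.7 CPM in VISTA KO and 50.2 CPM in WT, and neutrophil-like cells 47.9 CPM in VISTA KO (5 UMIs) and 122.9 CPM in WT. Fibroblast-like cells, of which there were 71 in VISTA KO and 39 in WT, held 57.6 CPM in VISTA KO and 58.0 CPM in WT. In WT the highest levels were in cluster 11 (Bcl2l1, Lypla2; 198.1 CPM), cluster 6 (Malat1; 179.0 CPM) and cluster 8 (Ace, Ceacam1, Ear2; 171.1 CPM), whose intervals overlap each other, and the lowest in mature DC-like and cDC2-like cells, whose intervals overlap as well. In VISTA KO the interval of every class overlapped that of the next class in order, so neighbours there are not apart.

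**Figure D1:**
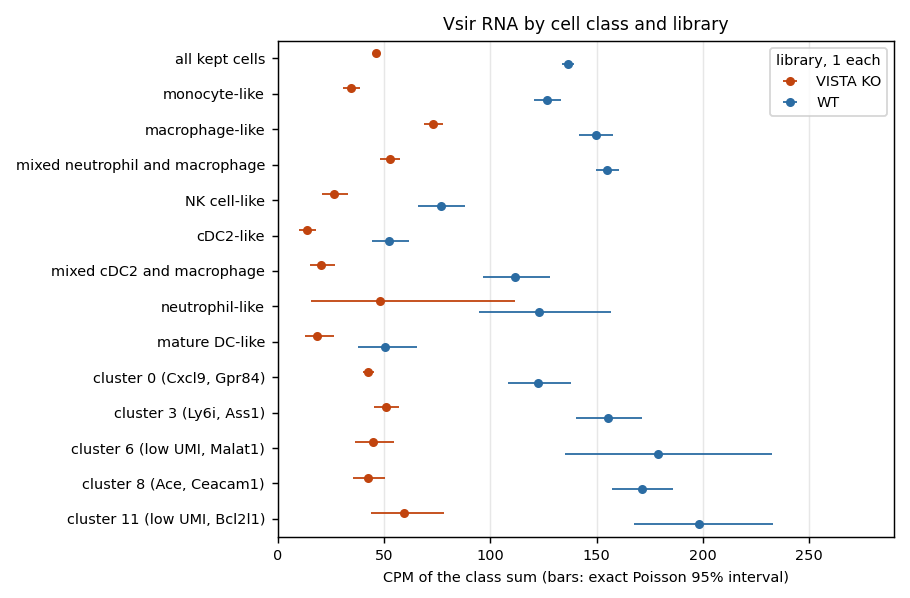
Vsir level (CPM of the class sum, x axis) in each cell class (y axis) of the VISTA KO and the WT library, 1 library each; points are levels and bars exact Poisson 95% intervals. The VISTA KO points lie left of the WT points in every class shown, and the VISTA KO level is highest in macrophage-like cells (73.1 CPM).

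Cell by cell, after each cell was thinned to 1000 UMIs, a Vsir UMI was found in 4.51% of VISTA KO cells (613 of 13579) and 12.2% of WT cells (1171 of 9632). Without thinning the shares were 18.0% in VISTA KO and 45.1% in WT. Fibroblast-like cells, taken as a background class, had a Vsir UMI in 6.25% of 64 thinned VISTA KO cells (1.73% to 15.2%) and 8.33% of 36 thinned WT cells (1.75% to 22.5%), with median depths of 4733 UMIs in VISTA KO and 6680 UMIs in WT. These droplets also held C1qa, a macrophage gene, at 33.1% of the macrophage-like level in VISTA KO and 21.5% in WT, so RNA of other cells was present in them. The Vsir share over all cells lay inside the fibroblast-like interval in VISTA KO and in WT, so at this depth the shares alone do not set the cells of either library apart from that class. Summed levels did so in WT, where all cells (133.6 to 139.4 CPM) lay above the fibroblast-like interval (35.9 to 88.7 CPM). In VISTA KO that interval (38.3 to 83.3 CPM) held the level over all cells, 46.2 CPM, and the macrophage-like level, 73.1 CPM. Macrophage-like VISTA KO cells had a Vsir UMI in 8.12% (7.08% to 9.27%) and cDC2-like VISTA KO cells in 0.889% (0.327% to 1.92%), which are apart by more than counting error.

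Ifi202b, an interferon-inducible gene whose expression differs between mouse strains, marked the libraries, with 558.4 CPM in VISTA KO and 5.79 CPM in WT. Among thinned VISTA KO cells an Ifi202b UMI was found in 37.0% of cells with Vsir (33.2% to 41.0%) and 40.2% of cells without Vsir, and the WT shares were 0.512% with Vsir and 0.520% without. In monocyte-like VISTA KO cells the shares were 58.9% with Vsir and 56.9% without, and in macrophage-like VISTA KO cells 34.8% with Vsir and 40.0% without. The VISTA KO cells with a Vsir UMI held an Ifi202b UMI about as often as the others. The origin of these cells and of the Vsir RNA in them was not tested. Vsir lies on chromosome 10 (chr10:60346851-60430294, GRCm38.p6) within the span of Cdh23 on the opposite strand (chr10:60302748-60696513), so the genes overlap in position. The labels do not state whether strand was used in counting, and without strand their reads cannot be told apart. Cdh23 had 92 UMIs in VISTA KO (1.15 CPM) and 12 UMIs in WT (0.194 CPM), a log2 ratio of 2.46 (1.69 to 3.56). Cdh23 was singled out for its position after its values were seen.

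**Figure D2:**
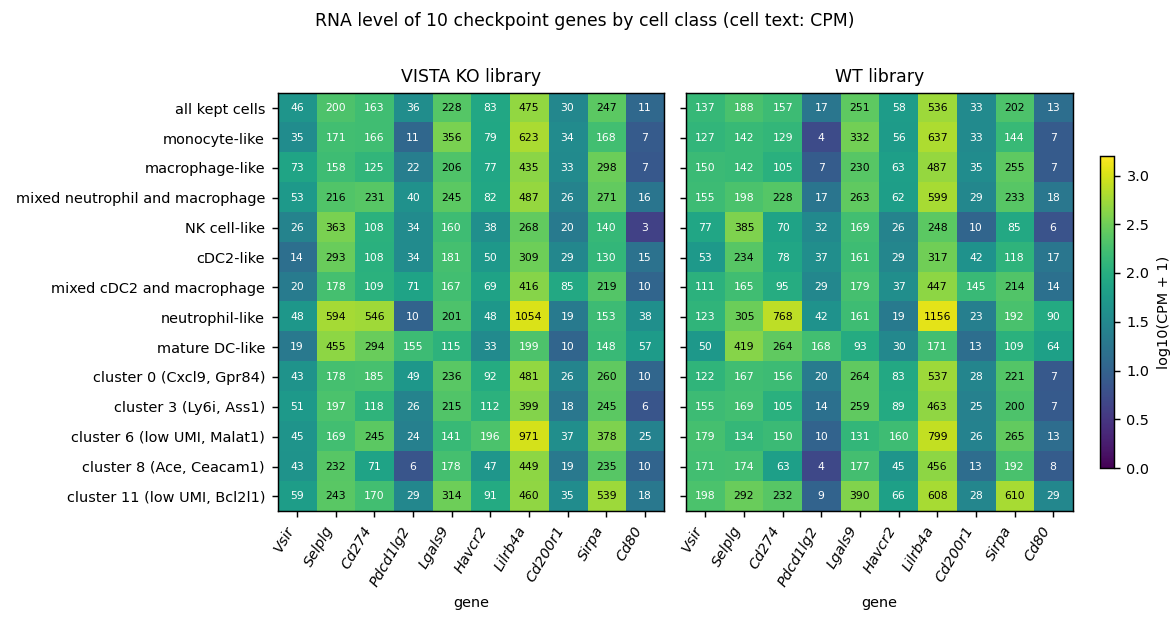
Level of the 10 genes (columns) in all kept cells and 13 classes or clusters (rows), VISTA KO library on the left and WT library on the right; color is log10(CPM + 1) and the number in each field is the CPM. Among the rows shown, Cd274 and Lilrb4a are highest in neutrophil-like cells and Pdcd1lg2 in mature DC-like cells of both libraries.

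Selplg, the gene of the VISTA partner PSGL-1, was close in the 2 libraries, at 199.9 CPM in VISTA KO and 188.1 CPM in WT (log2 ratio 0.09, 0.05 to 0.12). Mature DC-like cells had 455.1 CPM in VISTA KO and 419.0 CPM in WT, and NK cell-like cells 362.8 CPM in VISTA KO and 384.8 CPM in WT. Monocyte-like cells had 170.6 CPM in VISTA KO and 141.5 CPM in WT, and macrophage-like cells 158.0 CPM in VISTA KO and 141.6 CPM in WT. Over 17 WT clusters with at least 50 cells, the Pearson correlation of Selplg with Vsir was -0.57, a description of clusters that share 1 library. Neutrophil-like cells were the class in which Selplg reached the 1.5-fold rule, with 594.1 CPM in VISTA KO (62 UMIs from 76 cells) and 305.4 CPM in WT (log2 ratio 0.97, 0.51 to 1.39). In that class 13.1% of genes with at least 100 UMIs met the rule on the higher side. Its 14 macrophage markers summed to 2922 CPM in VISTA KO (12 of 14 with UMIs, 2 at 0) and 1266 CPM in WT (13 of 14 with UMIs, 1 at 0), and their part in the ratio was not tested.

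The PD-1 ligand genes are neighbours on chromosome 19, with 22824 bases between the end of Cd274 and the start of Pdcd1lg2, and they are described side by side because their ratios between the libraries differed over all cells. The 250 bases before each start in the RefSeq promoter table (GRCm38.p6, both on the plus strand) are shown for this pair. The start used for Cd274 there lies inside the span given for the gene in the gene table, chr19:29362107-29388095, so the 2 tables differ in where Cd274 begins. The windows are chr19:29367188-29367437 for Cd274 and chr19:29410669-29410918 for Pdcd1lg2.
Cd274: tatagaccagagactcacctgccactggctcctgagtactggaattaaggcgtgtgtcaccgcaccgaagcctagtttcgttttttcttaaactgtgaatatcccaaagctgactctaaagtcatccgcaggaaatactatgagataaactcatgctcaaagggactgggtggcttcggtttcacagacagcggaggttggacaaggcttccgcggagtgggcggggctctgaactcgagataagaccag
Pdcd1lg2: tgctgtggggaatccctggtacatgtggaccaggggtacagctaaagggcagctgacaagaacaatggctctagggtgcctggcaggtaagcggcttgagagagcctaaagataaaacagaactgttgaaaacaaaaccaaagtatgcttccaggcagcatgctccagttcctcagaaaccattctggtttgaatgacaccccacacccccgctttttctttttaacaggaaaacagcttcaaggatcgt
Both strands were searched for 3 motifs. These were TTCNNNGAA, a STAT dimer motif with 3 free bases, TGANTCA, the AP-1 motif, and the core of the interferon-stimulated response element. Other spacings of the STAT motif were not searched. None of the 3 occurred in either window, so no base is in capitals, and of 32851 windows of the same length 7.02% held TTCNNNGAA, 6.75% TGANTCA and 2.98% the response element core. These counts say only that the letters are not in these windows. The GC content was 50.4% for Cd274 and 48.4% for Pdcd1lg2.

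Pdcd1lg2 was higher in VISTA KO over all cells and in the monocyte-like and macrophage-like classes. Its level was 36.1 CPM in VISTA KO (2901 UMIs) and 17.2 CPM in WT (1064 UMIs), a log2 ratio of 1.07 (0.97 to 1.17). Macrophage-like cells had 22.3 CPM in VISTA KO and 7.46 CPM in WT (log2 ratio 1.57, 1.21 to 1.97), and monocyte-like cells 10.8 CPM in VISTA KO (93 UMIs) and 4.45 CPM in WT (55 UMIs; log2 ratio 1.27, 0.79 to 1.79). With each library clustered alone, the monocyte-like log2 ratio was 0.54, under the 1.5-fold rule. Without mixed and unnamed clusters, the log2 ratio over all cells was 0.61. The 14 macrophage markers, all with UMIs in both libraries, summed to 3670 CPM in VISTA KO and 2442 CPM in WT in monocyte-like cells and to 25188 CPM in VISTA KO and 20993 CPM in WT in macrophage-like cells, with 12 of 14 higher in VISTA KO in each class. The part of this difference in the Pdcd1lg2 ratios was not tested.

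Pdcd1lg2 UMIs were sparse in single cells. After thinning to 1000 UMIs, one was found in 1.90% of macrophage-like VISTA KO cells (47 cells) and 0.778% of macrophage-like WT cells (11 cells), and in 1.07% of monocyte-like VISTA KO cells and 0.282% of monocyte-like WT cells. Unthinned, the macrophage-like shares were 8.90% in VISTA KO and 3.47% in WT. Fibroblast-like cells had a Pdcd1lg2 UMI in 3.12% of thinned VISTA KO cells (2 of 64, 0.381% to 10.8%) and 5.56% of thinned WT cells (2 of 36, 0.680% to 18.7%), and their summed level was 22.6 CPM in VISTA KO (11 UMIs) and 11.1 CPM in WT (4 UMIs). The macrophage-like and monocyte-like shares were not above these in either library, and whether the UMIs of these classes are RNA of the cells themselves was not tested. Mature DC-like cells had a Pdcd1lg2 UMI in 14.9% of VISTA KO cells (10.7% to 19.97%) and 18.6% of WT cells (12.9% to 25.5%). The cluster 0 shares, 5.03% in VISTA KO and 1.51% in WT, lay inside the fibroblast-like intervals, which rest on few cells. Summed levels set some classes further apart. The fibroblast-like intervals were 11.3 to 40.5 CPM in VISTA KO and 3.01 to 28.3 CPM in WT. Mature DC-like cells lay above them, at 155.2 CPM (136.6 to 175.8) in VISTA KO and 167.8 CPM (144.0 to 194.4) in WT. Cluster 0 lay above in VISTA KO, at 49.0 CPM (46.2 to 51.8), and not in WT, at 20.2 CPM (14.7 to 27.2).

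Of the 9 genes other than Vsir, Pdcd1lg2 was the 1 that reached 1.5-fold higher over all kept cells, in monocyte-like cells and in macrophage-like cells, and 0 of 9 reached 1.5-fold lower in these 3 comparisons. Among all genes with at least 100 UMIs, the share that was higher by this rule was 4.43% over all cells, 4.35% in monocyte-like cells and 2.77% in macrophage-like cells, and the share that was lower was 4.19% over all cells, 1.9% in monocyte-like cells and 1.7% in macrophage-like cells. The median log2 ratio of the 9 genes was 0.05 over all cells, 0.22 in monocyte-like cells and 0.16 in macrophage-like cells, beside 0.08, 0.05 and 0.03 over all genes with at least 100 UMIs.

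In the other classes between 0 and 2 of the 9 genes were higher by the rule. The mixed neutrophil and macrophage cluster had 1 of 9 higher and 0 lower (4.25% of all genes higher, 1.78% lower), cluster 0 had 1 of 9 higher and 0 lower (5.81% and 2.25%), and cluster 3 had 1 of 8 counted genes higher and 0 lower (5.47% and 1.97%), each time Pdcd1lg2. The mixed cDC2 and macrophage cluster had 2 of 8 higher, Pdcd1lg2 and Havcr2, and 1 lower, Cd200r1 (4.48% and 4.73%). NK cell-like cells had 2 of 7 higher, Cd274 and Sirpa, and 0 lower (5.5% and 1.46%), and cDC2-like cells 1 of 9 higher, Havcr2, and 0 lower (4.87% and 1.7%). Neutrophil-like cells had 1 of 5 higher, Selplg, and 0 lower (13.1% and 10.5%), and cluster 6 had 1 of 6 higher, Cd274, and 0 lower (10.5% and 6.75%). Mature DC-like cells had 0 of 7 in either direction (5.78% and 1.77%), as did cluster 8 (0 of 7, 4.31% and 2.17%) and cluster 11 (0 of 6, 3.09% and 5.11%).

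Mature DC-like cells had the highest Pdcd1lg2 level in both libraries, and there the libraries were close, with 155.2 CPM in VISTA KO and 167.8 CPM in WT (log2 ratio -0.11, -0.40 to 0.17). The same held in cDC2-like cells, with 33.8 CPM in VISTA KO and 36.7 CPM in WT (log2 ratio -0.12, -0.51 to 0.27), and in NK cell-like cells, with 34.1 CPM in VISTA KO and 31.7 CPM in WT (log2 ratio 0.10, -0.34 to 0.55). Other clusters were higher by the rule. The mixed neutrophil and macrophage cluster had 40.1 CPM in VISTA KO and 16.7 CPM in WT, the mixed cDC2 and macrophage cluster 71.5 CPM in VISTA KO and 29.1 CPM in WT, and cluster 0 49.0 CPM in VISTA KO and 20.2 CPM in WT. In the mixed cDC2 and macrophage cluster Ccr7 stood at 10.7 CPM in VISTA KO (26 UMIs) and 1.65 CPM in WT (3 UMIs), and the sums of macrophage and neutrophil markers given beside Havcr2 differed as well, and their part in the ratio was not tested. Pdcd1lg2 was among the 10 leading genes of cluster 0, although it was kept out of the clustering, and in VISTA KO that cluster supplied 1176 of the 2901 UMIs. Cluster 3 (Ly6i, Ass1, Apoc2) had 26.3 CPM in VISTA KO and 14.1 CPM in WT. Intervals of the macrophage-like and the mature DC-like ratio do not overlap. Neutrophil-like cells held 1 UMI in VISTA KO and 22 UMIs in WT, too few for a ratio.

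RNA of mature dendritic cells was measured beside the macrophage-like values. The 10 mature dendritic cell markers, all with UMIs in both libraries, summed to 720.2 CPM in VISTA KO and 643.0 CPM in WT in macrophage-like cells, and 9 of 10 were higher in VISTA KO. Ccr7, a defining marker, stood there at 1.36 CPM in VISTA KO and 0.735 CPM in WT, and Fscn1 at 1.43 CPM in VISTA KO and 0.735 CPM in WT. In mature DC-like cells Ccr7 stood at 1201 CPM in VISTA KO and 1231 CPM in WT, with more UMIs than Pdcd1lg2. In macrophage-like cells Pdcd1lg2 had more UMIs than Ccr7 in both libraries. The part of RNA from mature dendritic cells or other cells in the macrophage-like Pdcd1lg2 values was not tested.

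Cd274, the gene of PD-L1, was close in the 2 libraries over all cells, at 163.3 CPM in VISTA KO and 157.4 CPM in WT (log2 ratio 0.05, 0.02 to 0.09). Some single classes were further apart than the whole, and the mixed neutrophil and macrophage cluster was not, at a log2 ratio of 0.02. Monocyte-like cells had 165.9 CPM in VISTA KO and 128.8 CPM in WT (log2 ratio 0.36, 0.26 to 0.47), and macrophage-like cells 125.0 CPM in VISTA KO and 105.0 CPM in WT (log2 ratio 0.25). Neutrophil-like cells, which had the highest level in both libraries, held 546.1 CPM in VISTA KO (57 UMIs) and 768.3 CPM in WT (400 UMIs), a log2 ratio of -0.47 (-0.92 to -0.09). Mature DC-like cells came next, with 293.6 CPM in VISTA KO and 264.5 CPM in WT. Those neutrophil-like cells supplied 57 of the 13106 Cd274 UMIs of VISTA KO and 400 of the 9711 of WT. The mixed neutrophil and macrophage cluster supplied 2177 in VISTA KO and 4720 in WT. The part of such class sizes in the 2 totals was not tested.

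The 1.5-fold rule was met for Cd274 in cluster 6, with 244.7 CPM in VISTA KO and 150.2 CPM in WT, and in NK cell-like cells. NK cell-like cells held 108.4 CPM in VISTA KO and 69.8 CPM in WT (log2 ratio 0.63, 0.36 to 0.91), and Sirpa stood there at 139.6 CPM in VISTA KO and 84.9 CPM in WT (log2 ratio 0.71, 0.47 to 0.96). There 5.5% of genes with at least 100 UMIs met the rule on the higher side. The 14 macrophage markers, all with UMIs in both libraries, summed in this class to 7246 CPM in VISTA KO and 5138 CPM in WT, and C1qa was found in 27.1% of thinned VISTA KO cells and 13.01% of thinned WT cells. The part of this RNA in the Cd274 and Sirpa ratios was not tested.

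**Figure D3:**
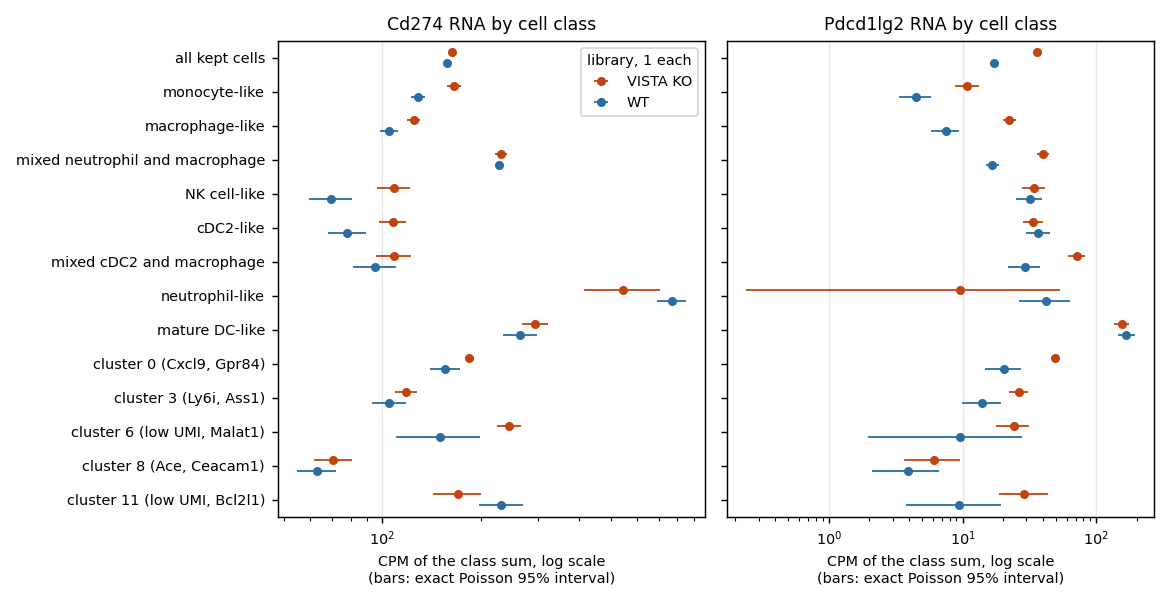
Level of Cd274 (left) and Pdcd1lg2 (right) in CPM of the class sum, log x axes, in each cell class (y axis) of the VISTA KO and the WT library, 1 library each; bars are exact Poisson 95% intervals. For Pdcd1lg2 the libraries are apart in macrophage-like cells (22.3 CPM in VISTA KO, 7.46 CPM in WT) and close in mature DC-like cells (155.2 CPM in VISTA KO, 167.8 CPM in WT).

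Cd80, the gene of the CD28 and CTLA-4 ligand, had the fewest UMIs of the 10 genes, at 10.975 CPM in VISTA KO (881 UMIs) and 13.3 CPM in WT (818 UMIs), a log2 ratio of -0.27 (-0.41 to -0.13). Mature DC-like cells held 56.7 CPM in VISTA KO and 64.5 CPM in WT, and neutrophil-like cells 38.3 CPM in VISTA KO (4 UMIs) and 90.3 CPM in WT (47 UMIs). Monocyte-like cells had 7.23 CPM in VISTA KO and 7.29 CPM in WT, and macrophage-like cells 6.61 CPM in VISTA KO and 7.25 CPM in WT, so the intervals of both ratios held 0. Over the 17 WT clusters its Pearson correlation with Cd274 was 0.80.

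Lgals9 and Havcr2, the galectin-9 and TIM-3 pair, did not peak in the same classes. Lgals9 stood at 228.1 CPM in VISTA KO and 251.1 CPM in WT (log2 ratio -0.14, -0.17 to -0.11) and was high in monocyte-like cells, with 356.0 CPM in VISTA KO and 332.2 CPM in WT. Macrophage-like cells held 205.7 CPM in VISTA KO and 230.3 CPM in WT, and mature DC-like cells, the lowest class, 114.7 CPM in VISTA KO and 92.9 CPM in WT. No class reached the 1.5-fold rule for Lgals9 among the 13 compared.

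Havcr2 was higher in VISTA KO in each of the 13 classes and clusters, and its interval lay above 0 in 7 of them. Over all cells it stood at 82.7 CPM in VISTA KO and 57.7 CPM in WT (log2 ratio 0.52, 0.46 to 0.58), just under 1.5-fold, and as a mean over cells of the CPM of each cell the log2 ratio was 0.74. Monocyte-like cells had 78.9 CPM in VISTA KO and 56.4 CPM in WT (log2 ratio 0.48, 0.33 to 0.64), and macrophage-like cells 76.6 CPM in VISTA KO and 62.5 CPM in WT (log2 ratio 0.29, 0.15 to 0.44). The rule was met in cDC2-like cells, with 50.3 CPM in VISTA KO and 28.6 CPM in WT (log2 ratio 0.80, 0.43 to 1.21), where 4.87% of genes were called higher, and in the mixed cDC2 and macrophage cluster, with 69.0 CPM in VISTA KO and 37.3 CPM in WT. In that cluster the macrophage markers summed to 9334.5 CPM in VISTA KO and 7861 CPM in WT and the 12 neutrophil markers to 379.7 CPM in VISTA KO and 2868 CPM in WT, and their part was not tested. In cDC2-like cells the 14 macrophage markers summed to 2061 CPM in VISTA KO and 1219 CPM in WT, with 13 of 14 higher in VISTA KO, and their part in the ratio was not tested. Cluster 6, a cluster of low UMI count led by Malat1, had the highest Havcr2 level in both libraries, 196.1 CPM in VISTA KO and 159.8 CPM in WT, and it held 11.4% of VISTA KO and 1.86% of WT cells.

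Among the receptors, Lilrb4a had the most UMIs of the 10 genes, at 474.8 CPM in VISTA KO and 536.1 CPM in WT (log2 ratio -0.18, -0.20 to -0.15). Neutrophil-like cells held 1054 CPM in VISTA KO and 1156 CPM in WT, basophil-like cells 1166 CPM in VISTA KO and 1480 CPM in WT (90 VISTA KO and 46 WT cells), and monocyte-like cells 622.6 CPM in VISTA KO and 637.3 CPM in WT. Macrophage-like cells had 435.1 CPM in VISTA KO and 487.3 CPM in WT. The interval of the monocyte-like ratio held 0 (log2 ratio -0.03, -0.08 to 0.02). Lilr4b, a gene of near-identical sequence, had 273.2 CPM in VISTA KO and 328.4 CPM in WT, so the division of reads between this pair is uncertain.

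Sirpa, the CD47 receptor gene, was higher in VISTA KO in 11 of 13 classes and clusters at mostly small ratios. It stood at 246.9 CPM in VISTA KO and 201.8 CPM in WT (log2 ratio 0.29, 0.26 to 0.32), at 168.2 CPM in VISTA KO and 144.2 CPM in WT in monocyte-like cells, and at 297.7 CPM in VISTA KO and 255.2 CPM in WT in macrophage-like cells. Cluster 11, of low UMI count, had the highest level, 539.0 CPM in VISTA KO and 610.5 CPM in WT. Sirpb1c, a paralog, stood at 125.5 CPM in VISTA KO and 76.1 CPM in WT, and the split of reads between such paralogs is uncertain.

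Cd200r1 differed little over all cells, at 29.6 CPM in VISTA KO and 33.3 CPM in WT (log2 ratio -0.17, -0.26 to -0.08). The mixed cDC2 and macrophage cluster (Retnla, Lpl, Mgl2, Ccl17) was where it was lower by the 1.5-fold rule, with 85.1 CPM in VISTA KO (206 UMIs) and 145.5 CPM in WT (265 UMIs), a log2 ratio of -0.77 (-1.04 to -0.51), and 4.73% of genes in that cluster were called lower. The marker sums given for that cluster beside Havcr2 differed between the libraries, and their part was not tested. Basophil-like cells held 92.7 CPM in VISTA KO and 125.6 CPM in WT. The paralog Cd200r4 had 24.4 CPM in VISTA KO and 17.7 CPM in WT over all cells, and 25.6 CPM in VISTA KO and 35.1 CPM in WT in the mixed cDC2 and macrophage cluster, and reads that these paralogs share cannot be assigned with certainty.

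**Figure D4:**
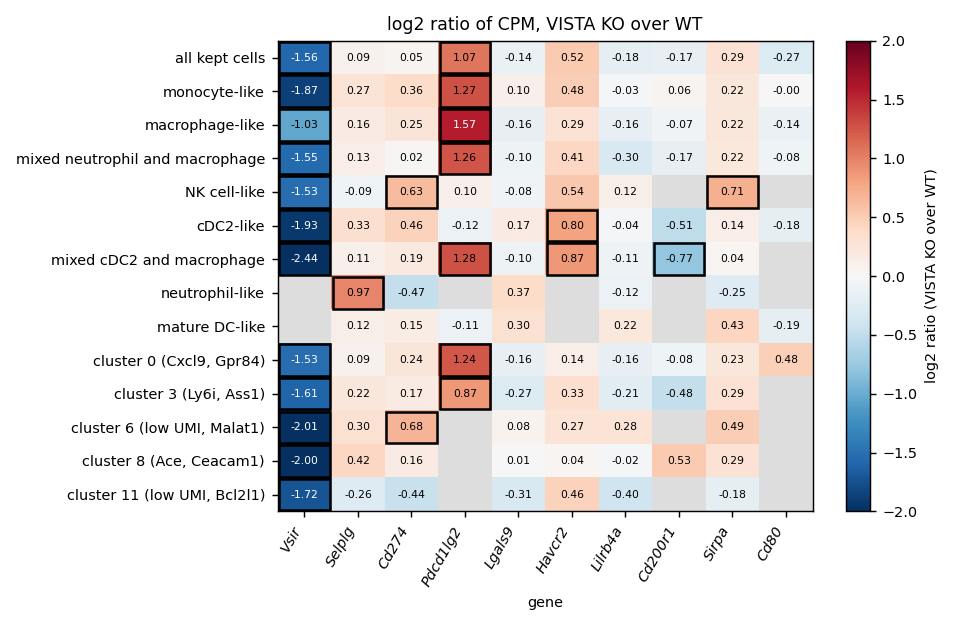
Log2 ratio of CPM, VISTA KO over WT, for the 10 genes (columns) in all kept cells and 13 classes or clusters (rows); gray fields have under 100 UMIs over both libraries and framed fields are at least 1.5-fold. Vsir is framed as lower in all 11 classes and clusters with enough UMIs, and Pdcd1lg2 as higher in 6 of 9.

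The partner genes were read in the same classes. T cell-like cells, 16 in VISTA KO and 145 in WT, held Ctla4 at 286.5 CPM in VISTA KO (23 UMIs) and 823.0 CPM in WT, and Cd28 at 149.5 CPM in VISTA KO (12 UMIs) and 200.7 CPM in WT. Pdcd1, the PD-1 gene, had 2 UMIs in VISTA KO and 55.9 CPM in WT in that class, and mature DC-like cells held 14.96 CPM in VISTA KO and 19.0 CPM in WT. Over all cells Ctla4 was lower in VISTA KO, at 0.822 CPM in VISTA KO and 11.3 CPM in WT (log2 ratio -3.76), as were Pdcd1 (log2 ratio -1.29) and Cd28 (log2 ratio -1.22), alongside a T cell-like share of 0.106% in VISTA KO and 1.42% in WT. Cd200, the ligand of CD200R1, was a gene of mature DC-like cells, with 286.2 CPM in VISTA KO and 235.1 CPM in WT, and Cd200r1 was low there, at 9.98 CPM in VISTA KO and 13.3 CPM in WT. Cd47 was close in the 2 libraries, at 586.6 CPM in VISTA KO and 595.3 CPM in WT. Cd86, the second CD28 ligand, stood at 148.7 CPM in VISTA KO and 114.4 CPM in WT (log2 ratio 0.38, 0.34 to 0.42) and had more UMIs than Cd80 in all but the neutrophil-like class in both libraries.

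Pairing within cells was read after thinning, as the share of cells with a UMI of both genes beside the product of the 2 single shares. Vsir and Selplg were found together in 0.788% of VISTA KO cells (107 cells, product 0.821%) and 2.21% of WT cells (213 cells, product 2.21%). Selplg was found in 17.5% of VISTA KO cells with Vsir and 18.2% of those without, and in 18.2% of WT cells both with and without Vsir. Lgals9 and Havcr2 were paired in 1.62% of VISTA KO cells (product 1.61%) and 1.24% of WT cells (product 1.23%). For both pairs the product lay inside the interval of the paired share in each library.

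Cd274 and Pdcd1lg2 met somewhat more often, in 0.633% of VISTA KO cells (86 cells, 0.507% to 0.782%, product 0.475%) and 0.291% of WT cells (28 cells, product 0.216%). The WT interval held the product at this depth and did not after thinning to 2000 UMIs, where the pair was found in 1.80% of VISTA KO cells (1.57% to 2.06%, product 1.37%) and 1.08% of WT cells (0.874% to 1.32%, product 0.668%). Of the cells with both genes, 34.9% in VISTA KO lay in cluster 0 and 8.14% in the mature DC-like class, and in WT 1 of 28 lay in cluster 0 and 7 of 28 in the mature DC-like class. Cluster 0 itself held 20.7% of kept VISTA KO cells and 2.60% of kept WT cells. The mature DC-like class held 1.72% in VISTA KO and 1.68% in WT. Within mature DC-like cells the pair was found in 2.82% of VISTA KO cells (product 3.37%) and 4.35% of WT cells (product 4.28%), and within cluster 0 in 0.967% of VISTA KO cells (product 0.932%). Vsir and Havcr2 were paired in 0.523% of VISTA KO cells (product 0.377%) and 0.727% of WT cells (product 0.695%), and Vsir and Sirpa in 1.20% of VISTA KO cells (product 0.996%) and 2.54% of WT cells (product 2.28%). Both VISTA KO intervals lay above the product at 1000 UMIs and held it at 2000 UMIs.

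Over all 45 pairs of the 10 genes in all kept cells, the product lay inside the interval of the paired share for 34 pairs in VISTA KO and 37 in WT. The paired share was above the product for 10 pairs in VISTA KO and 4 in WT, and below it for 1 pair in VISTA KO and 4 in WT. Selplg and Lilrb4a were the pair below it in both libraries, with 6.16% in VISTA KO (product 6.66%) and 6.28% in WT (product 7.01%), and Cd274 with Lilrb4a and Havcr2 with Lilrb4a were above it in both. Within single classes the 10 pairs described gave 150 values in VISTA KO and 140 in WT, and the product lay inside the interval for 149 in VISTA KO and 137 in WT. These calls depended on depth. After thinning to 2000 UMIs the product lay inside the interval for 6 of the 10 pairs described in VISTA KO and 6 of 10 in WT, with 3 above and 1 below in VISTA KO and 4 above in WT. Vsir with Cd274 was the pair below in VISTA KO, with 1.51% (upper bound 1.75%, product 2.01%), and Cd274 with Cd80, Pdcd1lg2 with Cd80 and Cd274 with Pdcd1lg2 were above in both libraries. Vsir with Sirpa was above in WT, with 7.59% (7.04% to 8.17%, product 6.96%). Without thinning, 10 of 10 pairs were above in VISTA KO and 10 of 10 in WT. At 1000 UMIs a cell most RNA molecules of these genes are not seen, so a cell without a UMI of a gene is not a cell without its RNA.

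**Figure D5:**
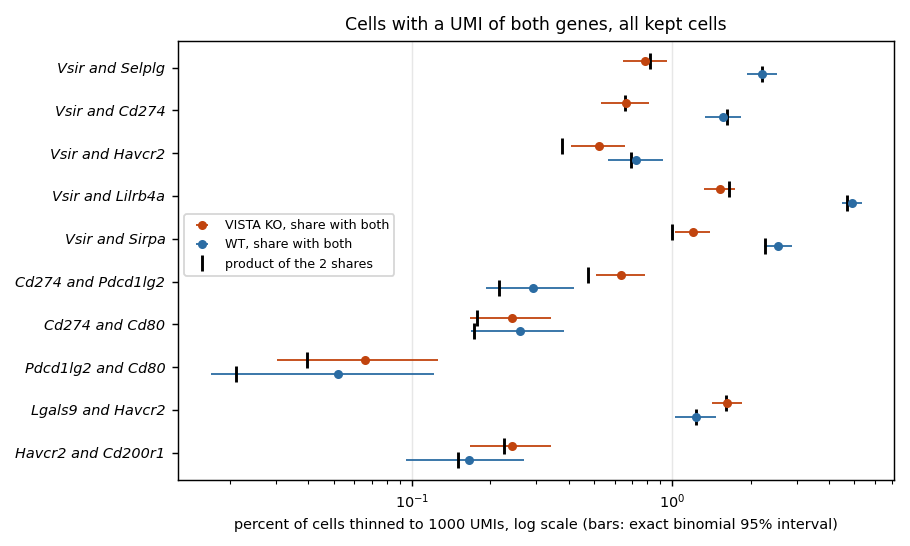
Percent of all kept cells, thinned to 1000 UMIs, with a UMI of both genes (points with exact binomial 95% intervals, log x axis) for 10 pairs (y axis) in the VISTA KO and the WT library, with the product of the 2 single shares as a black mark. The marks lie inside the interval for 7 of 10 pairs in VISTA KO and 10 of 10 in WT at this depth.

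Of a list of 57 partners and other checkpoint genes, 56 were found in the matrix by the symbol listed, and 48 had at least 20 UMIs over all kept cells. Lilr4b, described above, was not among the genes counted. Of the 48, 8 were higher and 12 lower in VISTA KO by the 1.5-fold rule, which 7.22% of all genes met on the higher side and 6.3% on the lower side. Monocyte-like cells had 5 of 37 higher and 2 lower (7.8% and 3.9% of all genes), and macrophage-like cells 4 of 40 higher and 8 lower (5.7% and 3.68%). The median log2 ratio of the list was 0.05 over all cells, 0.25 in monocyte-like cells and 0.13 in macrophage-like cells, beside 0.08, 0.06 and 0.04 for all genes.

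Fcgr2b, the inhibitory Fc gamma receptor gene, was higher in VISTA KO in all 3 comparisons, with 647.0 CPM in VISTA KO and 342.4 CPM in WT over all cells and 520.4 CPM in VISTA KO and 258.5 CPM in WT in monocyte-like cells. H2-T23, which encodes Qa-1, the mouse ligand of NKG2A, stood at 571.2 CPM in VISTA KO and 340.5 CPM in WT (log2 ratio 0.75). Timd4, a phosphatidylserine receptor gene of resident macrophages, had 4.31 CPM in VISTA KO and 0.648 CPM in WT, and Pecam1 was at 30.6 CPM in VISTA KO and 15.8 CPM in WT in macrophage-like cells. On the lower side were the SLAM family genes Cd244a, with 6.47 CPM in VISTA KO and 20.5 CPM in WT, and Cd48, the ligand of its product, with 98.2 CPM in VISTA KO and 178.5 CPM in WT, both in macrophage-like cells. They were lower in monocyte-like cells too, Cd244a with 17.7 CPM in VISTA KO and 29.3 CPM in WT and Cd48 with 70.3 CPM in VISTA KO and 112.5 CPM in WT. Sirpb1c and Pilra completed the extremes of the monocyte-like class, at log2 ratios of 0.64 and -0.57, and Siglece, a sialic acid receptor gene, that of macrophage-like cells, at -0.80 (-1.32 to -0.29). The groups also differed in CD45 allele, and whether these ratios go with the VISTA genotype or with other genetic differences was not tested.

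The genes whose level over the 17 WT clusters was most like that of a checkpoint gene were ranked by the Pearson correlation of log2(CPM + 1) among 8712 genes. For Vsir they were Sipa1l2 (0.93), Fgd4 (0.87), Sirpb1c (0.87), Slc43a2 (0.86) and Ppt2 (0.86). For Cd274 they were Antxr2 (0.92), Ccrl2 (0.91), Ptafr (0.90), Zfand3 (0.90) and AW011738 (0.90). Pdcd1lg2 was most like Scaper (0.89), Traf1 (0.86), Mob3a (0.84), Spint2 (0.83) and Stat4 (0.82), and Havcr2 most like Atg13 (0.90), Mfap3 (0.88), Tlr1 (0.86), Hivep3 (0.83) and Cfb (0.83). Among the 10 genes themselves, Pdcd1lg2 went with Selplg (0.72) and against Vsir (-0.68) and Lgals9 (-0.69), and Vsir went with Havcr2 (0.63) and Sirpa (0.63). These correlations are over clusters of 1 library that share its depth and its free RNA.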

How the data were processed

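The authors deposited raw UMI counts, 1 whole number for each gene and cell barcode, made with Cell Ranger 5.0.0 per the file headers and not normalized. Per the submitters' processing notes, Cell Ranger, Seurat 4.0 and mm10 were used, and no source used here gives the cell calling settings. The antibody tags were not used here. Cells with at least 200 genes, at least 500 UMIs and at most 10% mitochondrial UMIs were kept. Both libraries were clustered together (scanpy 1.11.5, leidenalg 0.10.2, resolution 1) with 2000 variable genes, without the 10 genes and the checkpoint list. Clusters were named -like from at least 3 of the markers in 17 lists; thresholds were set after seeing the clusters. No doublet caller was run, and clusters with RNA of 2 types were kept apart as mixed. UMIs were summed per class and library. Ratios carry a pseudocount of 1 UMI and exact conditional binomial intervals, levels exact Poisson intervals and shares exact binomial (Clopper-Pearson) intervals. A gene counted as 1.5-fold higher or lower with at least 100 UMIs over both libraries, or 20 for the checkpoint list. The ratio and its interval were tried on simulated sums with Poisson counting error only. Those sums held no variation between cells or libraries, so the trial cannot speak to it. Gene positions and promoters came from RefSeq tables for GRCm38.p6, the assembly behind mm10; 6 of the 10 genes have a promoter there. The genes, lists and markers were chosen with earlier results of these data known. Named genes were the 10 genes, the partners, the 3 highest and 3 lowest ratios of the list (at least 100 UMIs) in each of 3 comparisons, and the 5 most alike genes for each of 4 checkpoint genes.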

Additional observations from a re-analysis of the deposited data

How the results depend on the processing

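No paired analysis was possible because the design has 1 library on each side, and for the same reason no library could be left out. Vsir stayed lower in VISTA KO under each alternative tried in all kept, monocyte-like and macrophage-like cells. Its log2 ratio over all cells was -1.64 with scaling by the median gene ratio, -1.62 with TMM (edgeR 4.0.16), -1.64 as a mean over cells of the CPM of each cell, and -1.30 without mixed and unnamed clusters. In monocyte-like cells it was -2.08 without cluster 2, the cluster whose share differs most. In macrophage-like cells it was -1.18 with each library clustered alone, -1.17 when clustered without genes that differ 4-fold between the libraries, and -1.39 without cluster 4. The count of genes at least 1.5-fold higher was 2 over all cells as a mean over cells, with Havcr2 beside Pdcd1lg2. In monocyte-like cells it was 0 without a cell filter, where Pdcd1lg2 had too few UMIs at a log2 ratio of 1.58, and 0 with each library clustered alone, where its log2 ratio was 0.54; the cause was not tested. Of 243 alternative ratios of the other 9 genes, 196 stayed inside the main interval and 47 moved. Of 40 alternative pairing values, 31 stayed inside it, and the pairs whose share lay above or below the product changed with the thinning depth. Neutrophil-like, T cell-like, basophil-like and fibroblast-like values rest on few cells, and depth limits Cd80 and Pdcd1lg2 most.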
